A study of Homo sapiens with 18 samples.

Results

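The S100 genes encode small calcium-binding proteins with a pair of EF-hand loops, which act mostly as dimers inside the cell and, for several members, as signals outside it. The 10 genes described here were chosen by symbol, as the rows named S100A2, S100A4, S100A6, S100A7, S100A8, S100A9, S100A10, S100A11, S100A14 and S100P among the 40916 gene symbols of each table, and all 10 were found in all 18 libraries. The libraries came from 3 kinds of culture. MCF10A is a non-transformed human mammary epithelial line, tagged in this study with H2B-GFP and grown with horse serum, EGF, hydrocortisone, cholera toxin and insulin. HCT116 is a human colorectal carcinoma line, here unlabelled and p53-null and grown in McCoy's 5A medium with fetal bovine serum. The third culture was a 50-50 mixture of the lines, whose medium is not given in the sources used here. Cultures were either non-irradiated (NIR) or exposed to 10 Gy (IR), with 3 biological replicates in each of the 6 groups. Harvest was at day 2 by the sample titles but at 72 h after irradiation by the series text, a conflict that the tables do not settle. Every comparison between MCF10A and HCT116 is one of tissue, transformation, p53 status, label and medium at once, which cannot be told apart.

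In epithelia, S100A8 and S100A9 pair to form calprotectin, an antimicrobial and inflammatory complex best known from neutrophils and also made by stressed keratinocytes. S100A7 (psoriasin) and S100P are likewise known from stratified or glandular epithelium, S100A2 from basal epithelial cells, S100A4 from motile and mesenchymal cells, and S100A10 and S100A11 as partners of annexins at membranes. Most of the family lies in 1 tandem group on chromosome 1.

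By RefSeq gene spans (GRCh38.p14), 9 of the 10 genes lay on chromosome 1 between positions 151982915 and 153616325, a span of 1.63 Mb that held 17 S100 genes in all. S100P lay apart on chromosome 4, at chr4:6693878-6697170. The 250 bases before the RefSeq start site (GRCh38.p14) are shown for S100A8, S100A9 and S100P, which were all but silent in HCT116, for S100A2, which was high in MCF10A, and for S100A10, the member whose response differed in direction between the lines. They are printed 5′ to 3′ on the gene's own strand. Capitals mark matches, on either strand, to the TATA box (TATAAA), the AP-1 element (TGANTCA), the CCAAT box (CCAAT) or the GC box (GGGCGG).
S100A8, chr1:153391074-153391323, minus strand: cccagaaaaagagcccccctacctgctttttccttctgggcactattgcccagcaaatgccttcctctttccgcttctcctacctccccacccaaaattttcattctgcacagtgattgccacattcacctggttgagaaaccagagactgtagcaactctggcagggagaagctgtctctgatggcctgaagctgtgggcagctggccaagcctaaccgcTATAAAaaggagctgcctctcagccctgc
S100A9, chr1:153357604-153357853, plus strand: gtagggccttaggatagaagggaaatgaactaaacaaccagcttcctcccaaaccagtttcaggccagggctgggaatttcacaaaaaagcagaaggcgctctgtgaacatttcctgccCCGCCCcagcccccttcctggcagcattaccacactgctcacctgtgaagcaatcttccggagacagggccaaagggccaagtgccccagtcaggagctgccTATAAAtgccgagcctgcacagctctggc
S100P, chr4:6693628-6693877, plus strand: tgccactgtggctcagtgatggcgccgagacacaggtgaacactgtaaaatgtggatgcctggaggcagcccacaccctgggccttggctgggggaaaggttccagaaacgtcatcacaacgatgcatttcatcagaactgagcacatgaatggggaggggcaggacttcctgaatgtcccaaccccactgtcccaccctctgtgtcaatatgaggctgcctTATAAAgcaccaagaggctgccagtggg
S100A2, chr1:153565845-153566094, minus strand: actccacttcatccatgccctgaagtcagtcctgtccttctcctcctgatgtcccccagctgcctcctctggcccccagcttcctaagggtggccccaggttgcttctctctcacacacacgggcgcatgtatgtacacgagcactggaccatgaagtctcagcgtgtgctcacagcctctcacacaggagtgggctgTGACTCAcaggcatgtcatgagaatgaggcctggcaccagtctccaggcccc
S100A10, chr1:151993860-151994109, minus strand: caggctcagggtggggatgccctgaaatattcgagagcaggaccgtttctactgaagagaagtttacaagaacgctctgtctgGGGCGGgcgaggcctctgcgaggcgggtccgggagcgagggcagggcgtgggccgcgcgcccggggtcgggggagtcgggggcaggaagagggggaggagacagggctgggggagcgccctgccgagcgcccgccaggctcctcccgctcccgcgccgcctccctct

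A TATA box match stood in the promoters of 5 of the 10 genes, beginning at -29 in S100A8 and S100A9, -28 in S100P and S100A7, and -31 in S100A4, counted from the start site. Over all 34943 promoters of the same length, 10.8% held the same letters. S100A8 has 3 RefSeq starts, and the one shown was chosen because it has this match, so its match is no independent count. The only AP-1 match began at -52 in S100A2, against 6.59% of all promoters. GC box matches stood in 4 of the 10 promoters (S100A6, S100A9, S100A10 and S100A11), against 42.5% of all, and a CCAAT match in none of them, against 32% of all. S100A14 held no match to any of these motifs. A match is a description of letters, and no binding was measured.

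Library totals ran from 25737818 to 40839835 counts. Levels are CPM, a gene's counts over the library total times 1e+06. Mitochondrially encoded genes took 5.10 to 5.32% of counts in non-irradiated and 6.06 to 6.35% in irradiated MCF10A, 8.42 to 8.75% in HCT116 NIR, 11.5 to 12.3% in HCT116 IR, 8.37 to 8.73% in mixed NIR and 12.0 to 12.7% in mixed IR. With these genes and the 10 most abundant taken out of the library sizes, every call on the S100 genes described here stayed the same. The lines matched their labels by the summed levels of marker genes. The summed level of 10 basal mammary markers was 12161 to 12939 CPM in MCF10A NIR and 761 to 835 CPM in HCT116 NIR, where TP63 was at 0. CDH3 went the other way, with means of 147 CPM in MCF10A NIR and 196 CPM in HCT116 NIR. ITGB4 stood at means of 651 and 477 CPM. Without ITGB4, left out after its values were seen, the sums were 11494 to 12285 CPM in MCF10A NIR and 320 to 336 CPM in HCT116 NIR. The summed level of 10 intestinal markers was 2.79 to 3.91 CPM in MCF10A NIR and 748 to 1022 CPM in HCT116 NIR, where KRT19 alone gave 720 to 996 CPM. Without KRT19, a split made after its values were seen, the other 9 intestinal markers summed to 25.4 to 27.7 CPM in HCT116 NIR, and CDX1 and ASCL2 were at 0 there. The summed level of the 10 S100 genes was 2913 ± 152 CPM (SD, n = 3) in non-irradiated and 3914 ± 236 in irradiated MCF10A, 513 ± 86.0 in HCT116 NIR, 964 ± 59.6 in HCT116 IR, 469 ± 28.4 in mixed NIR and 890 ± 40.2 in mixed IR.

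**Figure D1:**
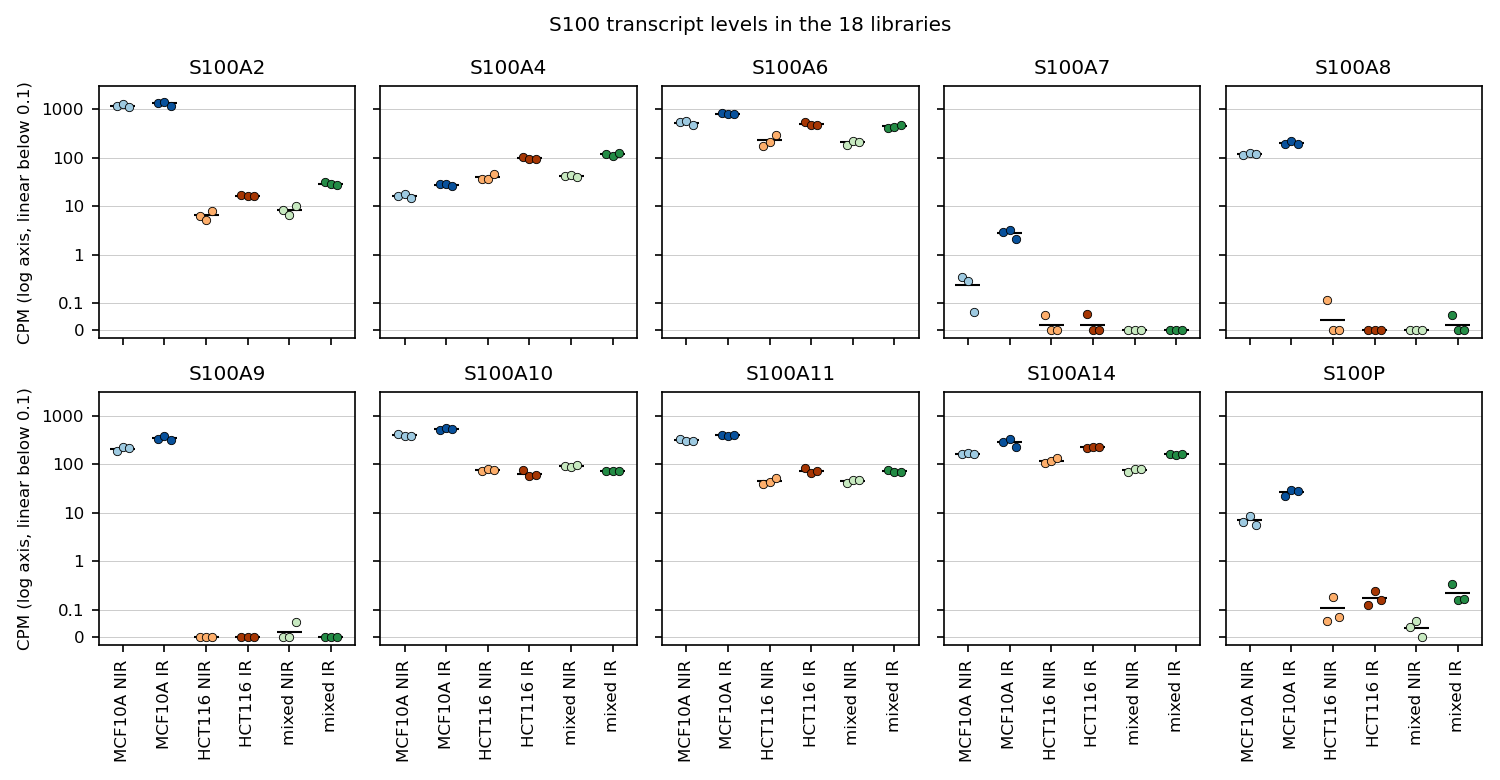
CPM of each S100 gene (log axis, linear below 0.1) in each of the 18 libraries (points), by group, with the group mean as a bar. S100A8 and S100A9 lie at 111 CPM or more in all 6 MCF10A libraries and at 0.12 CPM or less in the other 12, whereas S100A4 is lowest in MCF10A.

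Which S100 genes differed after irradiation in MCF10A was the first comparison. Of the 10 genes 9 passed the low-count filter in both groups, and all 9 rose. S100A7 passed only through the irradiated libraries, where it is high, so it had to differ and is not in that count. In the same comparison 26.2% of the 15154 genes tested were called higher, 29.2% lower and 55.4% in either direction (edgeR quasi-likelihood test, Benjamini-Hochberg adjusted p under 0.05). The median log2 fold change of the 9 was 0.71, against 0.00 over all genes tested. The 10 genes were chosen with earlier results of these data known, so such comparisons are descriptions, here and in the other cultures. The values ran from 0.14 for S100A2 to 1.92 for S100P. The summed basal mammary markers moved as well, from 12161 to 12939 CPM in NIR to 23360 to 23953 CPM in IR, and their part in the S100 values was not tested.

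S100A8, at chr1:153390032-153422583, stood at 111, 127 and 120 CPM in the MCF10A NIR libraries and at 192, 215 and 188 CPM in the IR libraries. S100A9, at chr1:153357854-153361023, stood at 189, 220 and 211 CPM in NIR and at 337, 388 and 320 CPM in IR. For neither gene did the NIR and IR libraries overlap. How many of all genes tested were free of overlap is not given, here or for the genes below. The log2 fold changes were 0.71 (SE 0.056, edgeR adjusted p = 1.22e-11) for S100A8 and 0.73 (SE 0.059, edgeR adjusted p = 1.92e-11) for S100A9, that is, 1.63-fold and 1.66-fold. Since calprotectin holds both proteins, their transcripts were compared with each other within a library, per kilobase of transcript. The S100A9 level over the S100A8 level was 1.53 ± 0.028 (SD, n = 3) in NIR and 1.55 ± 0.043 in IR, and the libraries of the groups overlapped. Both levels rose, and their ratio differed by less than the spread between libraries. Markers of myeloid cells, the cells best known for calprotectin, summed to 5.91 to 6.37 CPM in MCF10A NIR and 9.52 to 10.8 CPM in MCF10A IR, with LYZ, FCN1, TYROBP and CSF3R at 0 in both groups. Of the 10 myeloid markers 4 were tested, and ITGAM and MPO among them passed the filter only through the irradiated libraries. CD14 and CSF1R passed in both groups. CSF1R rose from a mean of 2.04 CPM in NIR to 4.38 CPM in IR (log2 fold change 1.08, edgeR adjusted p = 0.00013). CD14, at a mean of 3.65 CPM in NIR, was not called (log2 fold change -0.04, edgeR adjusted p = 0.888). The part of these markers in the S100A8 and S100A9 values was not tested. RefSeq has S100A8 overlap S100A7A on the opposite strand, and the strand setting of the counting is not given in the sources used here, so reads of these genes may not be fully told apart.

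S100A7 and S100P were the scarcest members in MCF10A. S100A7, a secreted antimicrobial protein of keratinocytes, at chr1:153457744-153460651, stood at 0.35, 0.28 and 0.07 CPM in MCF10A NIR and at 2.90, 3.21 and 2.12 CPM in MCF10A IR. These are 24 counts over the NIR libraries and 239 over the IR libraries. Every IR library was above every NIR library. The fitted log2 fold change was 3.47 (SE 0.43), given as a description because the gene entered the fit through the IR libraries. S100A7 and S100A7A are near-identical copies, so the split of reads between them is uncertain. S100A7A itself had 8 counts over the NIR libraries and 40 over the IR libraries, and it too passed the filter only through the latter. S100P, a ligand of the receptor AGER that is known from placenta and from carcinomas, stood at 6.41, 8.70 and 5.60 CPM in NIR and at 22.5, 29.1 and 28.6 CPM in IR. Its lowest IR library was thus far above its highest NIR library, and the log2 fold change was 1.92 (SE 0.13, edgeR adjusted p = 8.71e-13), or 3.79-fold.

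S100A2 was the most abundant member in MCF10A, per kilobase of transcript as well as in CPM. S100A2, a gene of basal epithelial cells at chr1:153561108-153565844, stood at 1169, 1262 and 1087 CPM in NIR and at 1363, 1413 and 1167 CPM in IR. The groups overlapped, since 1 IR library lay below 2 of the NIR libraries, and the log2 fold change was 0.14 (SE 0.054, edgeR adjusted p = 0.026). This call was not firm: DESeq2 gave an adjusted p of 0.295, and leaving out each of the 6 libraries in turn kept the call 2 times, with adjusted p up to 0.236. S100A14, an epithelial membrane-associated member at chr1:153614255-153616325, stood at 161, 171 and 165 CPM in NIR and at 286, 326 and 226 CPM in IR. All IR libraries were above all NIR libraries, although they were spread more widely, and the log2 fold change was 0.73 (SE 0.074, edgeR adjusted p = 2.08e-09).

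S100A4 and S100A6 lie close to each other on chromosome 1, and both rose in MCF10A. S100A4, which binds nonmuscle myosin, at chr1:153543621-153545806, stood at 16.0, 18.2 and 14.8 CPM in NIR and at 28.99, 28.3 and 25.6 CPM in IR (log2 fold change 0.73, SE 0.095, edgeR adjusted p = 1.78e-07). S100A6, or calcyclin, at chr1:153534599-153535991, stood at 544, 557 and 462 CPM in NIR and at 813, 785 and 780 CPM in IR (log2 fold change 0.58, SE 0.050, edgeR adjusted p = 6.14e-11). For both genes the groups were separate. S100A4 overlaps S100A3 on the same strand in GENCODE v29, and reads there cannot be placed with certainty.

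The annexin partners rose least among the members after S100A2. S100A10, also called p11, which binds annexin A2, at chr1:151982915-151993859, stood at 421, 378 and 385 CPM in MCF10A NIR and at 513, 551 and 524 CPM in IR (log2 fold change 0.40, SE 0.043, edgeR adjusted p = 6.19e-09). S100A11, a partner of annexin A1, at chr1:152032506-152037004, stood at 335, 299 and 294 CPM in NIR and at 398, 386 and 398 CPM in IR (log2 fold change 0.33, SE 0.044, edgeR adjusted p = 3.86e-07). Neither gene's groups overlapped.

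**Figure D2:**
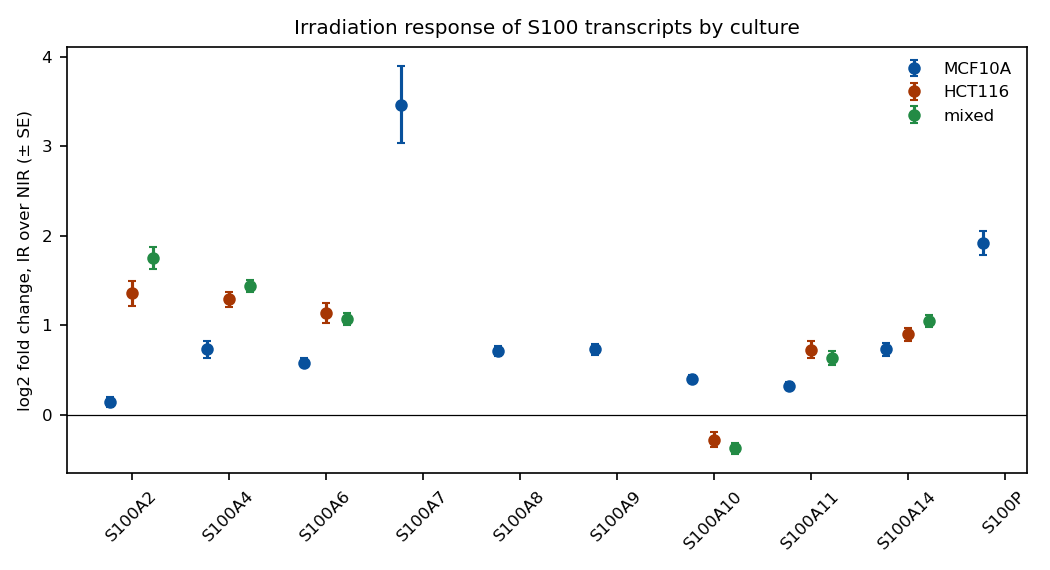
Log2 fold change of IR over NIR for each S100 gene (points, with SE as bars) in MCF10A, HCT116 and mixed cultures; genes that did not pass the low-count filter of a culture have no point there, and S100A7 passed only through the irradiated libraries. S100A10 lies above 0 in MCF10A (0.40) and below 0 in HCT116 (-0.28) and mixed cultures (-0.38), while S100A2 moves least in MCF10A (0.14) and most in mixed cultures (1.75). The estimated MCF10A share of RNA was 0.452% in mixed NIR and 1.26% in mixed IR. Its part in the mixed S100A2 value was not tested.

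The same question in HCT116 had an answer for 6 of the 10 genes, since S100A7, S100A8, S100A9 and S100P did not pass the low-count filter. Of the 6 tested, 5 rose and S100A10 fell. The background was 25.3% of 16857 genes called higher, 27.2% called lower and 52.5% called in either direction. The median of the 6 was 1.02 on the log2 scale, against 0.01 over all genes tested. S100A2 stood at 6.19, 5.25 and 7.96 CPM in HCT116 NIR and at 16.6, 16.2 and 16.5 CPM in HCT116 IR, a log2 fold change of 1.36 (SE 0.14, edgeR adjusted p = 2.46e-08). S100A4 stood at 35.4, 36.7 and 46.6 CPM in NIR and at 102, 92.7 and 93.4 CPM in IR, a log2 fold change of 1.29 (SE 0.087, edgeR adjusted p = 1.83e-11). S100A6 stood at 177, 214 and 287 CPM in NIR and at 545, 463 and 476 CPM in IR, a log2 fold change of 1.14 (SE 0.11, edgeR adjusted p = 6.43e-09). In each of these genes every IR library was above every NIR library, by 2.20- to 2.56-fold in the fit.

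S100A14 stood at 105, 116 and 135 CPM in HCT116 NIR and at 212, 227 and 221 CPM in IR (log2 fold change 0.90, SE 0.075, edgeR adjusted p = 6.00e-10). S100A11 stood at 39.2, 42.5 and 52.5 CPM in NIR and at 82.1, 66.3 and 72.8 CPM in IR (log2 fold change 0.73, SE 0.094, edgeR adjusted p = 7.26e-07). Both were separate between the groups. S100A10 alone went the other way, from 72.9, 80.8 and 76.8 CPM in NIR to 74.0, 56.5 and 58.5 CPM in IR. The groups overlapped, with 1 IR library inside the NIR range, and the log2 fold change was -0.28 (SE 0.084, edgeR adjusted p = 0.0075). Without HCT116 IR replicate 2 or 3 the call was lost, and the highest adjusted p when leaving out each library in turn was 0.070.

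Counts of the remaining 4 genes in HCT116 were at the limit of detection. S100A9 had no count in any of the 6 HCT116 libraries. S100A8 had 4 counts in NIR, all in 1 library, and 0 in IR. S100A7 had 2 counts in NIR and 2 in IR, each in 1 library. S100P had 10 counts in NIR and 18 in IR, spread over all 6 libraries, at 0.06 to 0.24 CPM. Whether these genes differed after irradiation was therefore not detectable at this depth.

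The mixed cultures gave the same 6 genes to test, of which 5 rose and S100A10 fell, against 24% of 16906 genes called higher, 25.4% called lower and 49.4% called in either direction. The median of the 6 was 1.06 on the log2 scale, against 0.01 over all genes tested. S100A2 stood at 8.37, 6.69 and 10.3 CPM in mixed NIR and at 30.8, 28.2 and 27.9 CPM in mixed IR, a log2 fold change of 1.75 (SE 0.12, edgeR adjusted p = 1.61e-10). By an estimate described further below, MCF10A RNA made up 0.452% of mixed NIR and 1.26% of mixed IR. The part of this shift in the S100A2 value was not tested. S100A4 stood at 42.3, 43.8 and 40.8 CPM in NIR and at 117, 110 and 122 CPM in IR, a log2 fold change of 1.44 (SE 0.066, edgeR adjusted p = 2.36e-13). S100A6 stood at 185, 219 and 213 CPM in NIR and at 417, 425 and 480 CPM in IR, a log2 fold change of 1.07 (SE 0.067, edgeR adjusted p = 2.59e-11). All 3 genes rose without overlap of the libraries, for which no share over all genes is given.

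S100A14 stood at 67.8, 80.6 and 79.8 CPM in mixed NIR and at 161, 156 and 165 CPM in mixed IR (log2 fold change 1.05, SE 0.068, edgeR adjusted p = 4.27e-11). S100A11 stood at 40.0, 47.7 and 46.9 CPM in NIR and at 74.2, 69.5 and 69.3 CPM in IR (log2 fold change 0.63, SE 0.076, edgeR adjusted p = 5.20e-07). S100A10 stood at 92.9, 87.1 and 95.2 CPM in NIR and at 72.0, 72.1 and 71.7 CPM in IR. Here its fall was free of overlap and held whichever of the 6 libraries was left out, with a log2 fold change of -0.38 (SE 0.062, edgeR adjusted p = 3.09e-05).

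How far the response of the S100 genes differed between the lines was tested as the difference of the log2 fold changes, HCT116 minus MCF10A, in a fit of all 12 libraries of single lines. Of the 6 genes measurable in both lines, 4 had the larger rise in HCT116, S100A10 differed the other way and S100A14 was not called. Over all 18179 genes tested, 15.4% were called higher, 21.9% lower and 37.3% in either direction, and the median difference was -0.10. The difference was 1.14 (SE 0.13, edgeR adjusted p = 1.28e-07) for S100A2, where the separate fits gave 0.14 in MCF10A and 1.36 in HCT116. The 12 libraries were normalized together here, so the differences need not equal those between the separate fits. It was 0.48 (SE 0.14, edgeR adjusted p = 0.0067) for S100A4. It was -0.76 (SE 0.10, edgeR adjusted p = 1.68e-06) for S100A10. These 3 calls held whichever of the 12 libraries was left out.

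For S100A6 the difference was 0.48 (SE 0.15, edgeR adjusted p = 0.012), and for S100A11 it was 0.33 (SE 0.11, edgeR adjusted p = 0.026). DESeq2 called neither, with adjusted p of 0.101 for S100A6 and 0.108 for S100A11, and the S100A11 call held for 8 of the 12 libraries left out in turn, with adjusted p up to 0.108. For S100A14 the difference was 0.09, with a 95% interval of -0.16 to 0.34 and an edgeR adjusted p of 0.64. Without MCF10A IR replicate 2, the library with the highest S100A14 level, the S100A14 difference was 0.33 and was called (edgeR adjusted p = 0.036). In that fit the median difference over all genes moved too, from -0.10 to 0.01. S100A7, S100A8, S100A9 and S100P passed the filter of this fit only through MCF10A, and their differences were not interpretable.

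**Figure D3:**
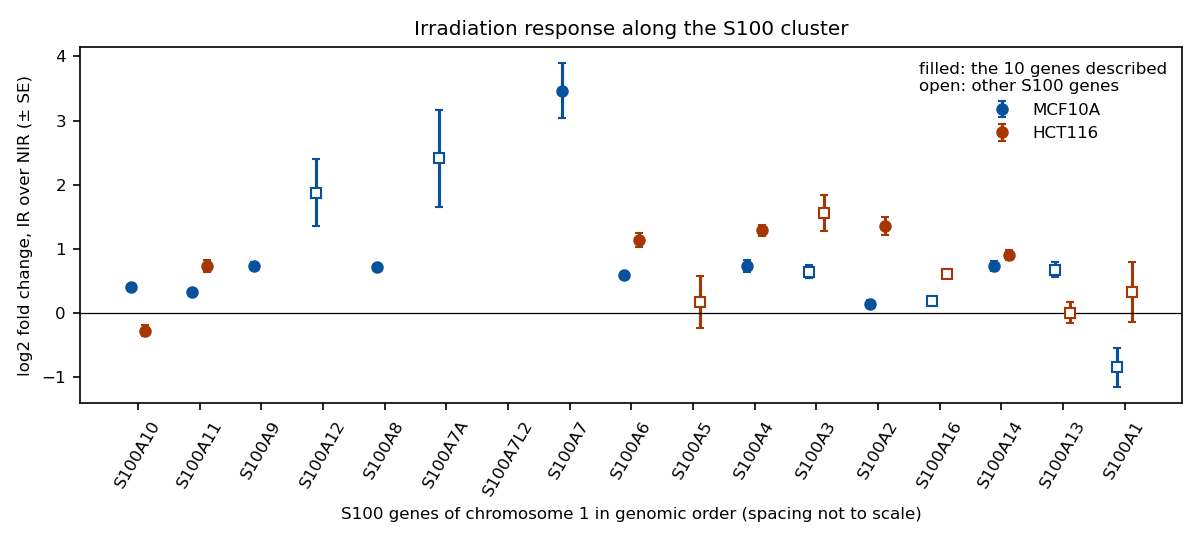
Log2 fold change of IR over NIR (points, with SE as bars) in MCF10A and HCT116 for the S100 genes of chromosome 1 in genomic order, with filled circles for the genes described here and open squares for the others; untested genes have no point, and S100A7, S100A7A and S100A12 passed the filter only through irradiated MCF10A. S100A10 at one end of the row is the tested gene of HCT116 that is called lower (-0.28), and in MCF10A it is S100A1 at the other end (-0.85). In both of these the NIR and IR libraries overlapped.

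Other S100 genes, their fused-type relatives and their partners were read from lists kept beside the 10. Of the 11 other family genes 4 passed the filter in both MCF10A groups, of which 3 rose and 1 fell, with a median log2 fold change of 0.41, against 26.2% and 29.2% of all genes called higher and lower. S100A12 and S100A7A passed only through irradiated MCF10A. In HCT116 2 of 5 tested rose and none fell, and in mixed cultures 2 of 5 rose and none fell, against 25.3% and 24% of all genes called higher. S100A16, next to S100A14 on the chromosome, rose in all 3 cultures, by 0.18 (SE 0.045, edgeR adjusted p = 0.0010) in MCF10A, 0.61 (SE 0.067, edgeR adjusted p = 6.24e-08) in HCT116 and 0.56 (SE 0.066, edgeR adjusted p = 4.20e-07) in mixed cultures on the log2 scale. In MCF10A S100A13 rose by 0.67 (SE 0.12, edgeR adjusted p = 2.65e-05) and S100A3 by 0.64 (SE 0.10, edgeR adjusted p = 4.29e-06). S100A13 and S100A1 overlap on opposite strands, and S100A3 overlaps S100A4, so these values may share reads. The gene that fell in MCF10A was S100A1, at a mean of 2.91 CPM in NIR and 1.64 CPM in IR, named here after its values were seen.

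The fused-type genes encode large proteins of the cornified cell layer that begin with an S100 domain. Of the 7, 3 were tested in MCF10A and 2 (FLG and HRNR) rose. Over all genes tested there, 26.2% were called higher and 55.4% in either direction, and 3 genes are too few to compare with these shares. In HCT116 and mixed cultures no gene of the list passed the filter in both groups, so none is counted there. All were scarce. Chosen after their values were seen, HRNR (hornerin) stood at means of 0.27 CPM in HCT116 NIR and 5.61 CPM in HCT116 IR, and FLG (filaggrin) at 1.68 CPM in MCF10A NIR and 6.91 CPM in MCF10A IR.

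Among the 12 binding partners and receptors, 10 passed the filter in both MCF10A groups, with 6 higher and 2 lower, and 10 in both groups of each other culture, with 4 higher and 3 lower. Over all genes 55.4%, 52.5% and 49.4% were called in either direction in MCF10A, HCT116 and mixed cultures. With 10 partners in each culture, these counts do not settle whether their share differs from that of all genes, which was not tested. CACYBP, the calcyclin-binding protein that binds S100A6, fell in all 3 cultures. Its log2 fold change was -0.82 (SE 0.046, edgeR adjusted p = 1.14e-14) in MCF10A, -0.63 (SE 0.063, edgeR adjusted p = 1.25e-08) in HCT116 and -0.86 (SE 0.073, edgeR adjusted p = 3.33e-09) in mixed cultures. S100A6 over CACYBP, per kilobase, was 7.90 ± 0.55 (SD, n = 3) in NIR and 20.9 ± 0.67 in IR of MCF10A, 5.98 ± 1.80 in HCT116 NIR and 20.3 ± 2.63 in HCT116 IR, and 4.64 ± 0.89 in mixed NIR and 17.5 ± 1.46 in mixed IR. In each culture the lowest IR library was above the highest NIR library.

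ANXA2, the annexin that S100A10 binds, rose by 0.59 (SE 0.034, edgeR adjusted p = 2.48e-14) in MCF10A and by 0.46 (SE 0.049, edgeR adjusted p = 3.99e-08) in HCT116 on the log2 scale. S100A10 over ANXA2, per kilobase, was 0.239 ± 0.019 (SD, n = 3) in non-irradiated and 0.210 ± 0.0033 in irradiated MCF10A. In HCT116 it was 0.0838 ± 0.0037 in NIR and 0.0501 ± 0.0075 in IR, and in mixed cultures 0.0939 ± 0.0059 in NIR and 0.0585 ± 0.0013 in IR. S100A10 was thus lower against its partner in the IR libraries of all 3 cultures, without overlap, including MCF10A, where its own level was higher. S100A11 over ANXA1 was 1.60 ± 0.17 in MCF10A NIR and 1.49 ± 0.035 in MCF10A IR, where the libraries overlapped. It was 0.377 ± 0.084 in HCT116 NIR and 0.530 ± 0.073 in HCT116 IR, also with overlap. In mixed cultures it was 0.361 ± 0.044 in NIR and 0.437 ± 0.010 in IR, without overlap. These ratios were not tested.

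**Figure D4:**
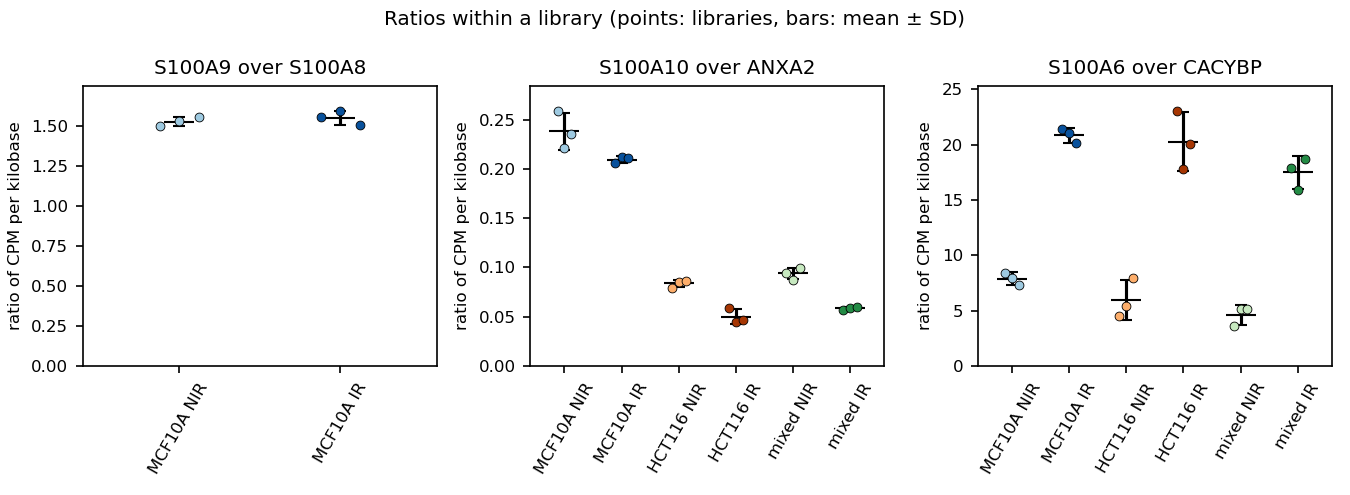
Ratio of CPM per kilobase of transcript within each library (points) with the group mean and SD, for S100A9 over S100A8 (MCF10A only), S100A10 over ANXA2 and S100A6 over CACYBP. The first ratio stays near 1.53 to 1.55, the second is lower and the third higher in the IR libraries of every culture.

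The remaining called partners that met the rule for naming were mostly scaffold and membrane proteins. In MCF10A AHNAK rose by 0.48 (SE 0.034, edgeR adjusted p = 2.18e-12) and MYH9, the nonmuscle myosin heavy chain that S100A4 binds, by 0.47 (SE 0.034, edgeR adjusted p = 1.89e-12). In HCT116 EZR (ezrin) rose by 0.46 (SE 0.050, edgeR adjusted p = 5.07e-08), and ANXA6 changed by -1.14 (SE 0.064, edgeR adjusted p = 7.42e-13). In mixed cultures EZR rose by 0.40 (SE 0.049, edgeR adjusted p = 7.54e-07), ANXA1 rose by 0.36 (SE 0.062, edgeR adjusted p = 6.41e-05), and ANXA6 changed by -0.51 (SE 0.064, edgeR adjusted p = 9.64e-07).

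The lines themselves differed in each of the 6 members that could be counted in both, where 74.8% and 74.9% of all genes were called without and with irradiation. Whether the share among 6 members differs from that of all genes was not tested. Without irradiation 6 of the 10 passed the filter in both lines, of which S100A4 was higher in HCT116 and 5 were lower, against 38.7% of 16568 genes called higher, 36.1% called lower and 74.8% called in either direction. After irradiation the same 6 passed in both, and again S100A4 was higher and 5 were lower, against 38.1% of 16932 genes called higher, 36.8% lower and 74.9% in either direction. S100A8, S100A9 and S100P, and after irradiation S100A7, passed only through MCF10A, where they are high, and are described by their counts. Upper-quartile scaling moved the median of all genes in the non-irradiated comparison from 0.05 to 0.25 on the log2 scale, and no direction of a member changed with scaling. The widest difference that both lines could measure well was in S100A2, with a log2 fold change of -7.71 (SE 0.11, edgeR adjusted p = 1.31e-19) without and -6.55 (SE 0.073, edgeR adjusted p = 9.22e-30) with irradiation. S100A4, the one gene higher in HCT116, had 1.07 (SE 0.12, edgeR adjusted p = 1.49e-07) without and 1.57 (SE 0.069, edgeR adjusted p = 6.33e-17) with irradiation.

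S100A10 differed by -2.56 (SE 0.060, edgeR adjusted p = 7.87e-17) and S100A11 by -2.99 (SE 0.090, edgeR adjusted p = 2.65e-15) without irradiation. After irradiation the values were -3.30 (SE 0.073, edgeR adjusted p = 2.05e-23) for S100A10 and -2.65 (SE 0.061, edgeR adjusted p = 4.46e-23) for S100A11. The gap between the lines was smaller for S100A6, at -1.40 (SE 0.12, edgeR adjusted p = 8.90e-09) without and -0.91 (SE 0.053, edgeR adjusted p = 2.36e-14) with irradiation. It was smallest for S100A14, at -0.68 (SE 0.076, edgeR adjusted p = 2.71e-07) and -0.57 (SE 0.079, edgeR adjusted p = 3.84e-07), and the S100A14 libraries of the lines overlapped after irradiation.

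For genes with few or no counts in HCT116, folds were taken from the summed counts, with exact 95% intervals that cover counting error only. Relative to MCF10A of the same treatment, S100A9 was at least 6506-fold lower in HCT116 NIR and at least 11480-fold lower in HCT116 IR, against a floor of 3 counts over the group, or 3253-fold and 5740-fold if mates were counted singly. S100A8 was 2821-fold lower in HCT116 NIR (interval 1102 to 10353) and at least 6541-fold lower in HCT116 IR, or 3271-fold if mates were counted singly. S100P was 66.0-fold lower in HCT116 NIR (interval 35.9 to 138) and 148-fold lower in HCT116 IR (interval 93.9 to 250). S100A7 was 11.5-fold lower in HCT116 NIR (interval 3.17 to 94.7) and 134-fold lower in HCT116 IR (interval 37.1 to 1107). The calprotectin genes thus had the widest gap between the lines among the 10.

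Within a line the members ranked differently by level per kilobase of transcript. In MCF10A NIR S100A2 came first at 1939 CPM per kilobase, followed by S100A6 at 775, S100A11 at 521, S100A10 at 434, S100A9 at 358, S100A8 at 235, S100A14 at 155, S100A4 at 28.7, S100P at 5.40 and S100A7 at 0.51. In HCT116 NIR S100A6 came first at 336 CPM per kilobase, followed by S100A14 at 111, S100A10 at 84.5, S100A11 at 75.3, S100A4 at 69.5 and S100A2 at 10.7. Over the 6 groups the S100A2 level fell from MCF10A IR and MCF10A NIR, which overlapped, to mixed IR, HCT116 IR, and then mixed NIR and HCT116 NIR, which overlapped. The order for S100A4 was mixed IR, HCT116 IR, mixed NIR and HCT116 NIR (these 2 overlapping), MCF10A IR and MCF10A NIR.

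Whether mixed cultures held S100 transcripts as a sum of the monocultures would was read against an estimate of the share of MCF10A RNA in them. The share came from genes of at least 20 CPM in one line and under 1 CPM in all libraries of the second line, and was 0.509, 0.444 and 0.404% in the mixed NIR libraries and 1.30, 1.19 and 1.29% in the mixed IR libraries. The share is one of RNA: fewer MCF10A cells and less RNA per cell cannot be told apart. It rests on 142 MCF10A-specific and 153 HCT116-specific genes in NIR, and on 140 and 139 in IR. The mixed libraries were thus nearly HCT116 libraries by RNA, and most S100 genes stood near their HCT116 level.

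At these shares the mixed NIR libraries would hold 57 counts of S100A8 and 91 of S100A9, and 0 and 2 were present. The mixed IR libraries would hold 271 counts of S100A8 and 477 of S100A9, and 2 and 0 were present. Both genes were thus nearly absent at a depth where MCF10A RNA as a whole was present. With the lowest share estimates tried, 0.309% in NIR and 0.989% in IR, 39 counts of S100A8 and 62 of S100A9 would be present in NIR, and 213 and 375 in IR. Among MCF10A-specific genes, from which the S100 genes were left out, S100A8 was at or above 7 of 142 in NIR and 4 of 140 in IR by percent of monoculture level, and S100A9 at or above 8 of 142 and 4 of 140. The middle 50% of those genes lay between 0.201 and 1.01% of their monoculture level in NIR and between 0.582 and 2.36% in IR. S100P in mixed IR had 24 counts where 55 would be present. Unlike S100A8 and S100A9, it lay inside the middle 50% of those genes, at 0.831% of its monoculture level and at or above 51 of 140.

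S100A7 had 0 counts in mixed NIR where 2 would be present and 0 in mixed IR where 6 would be, too few to compare. The 6 abundant members were nearer to the sum. S100A2 stood at 8.44 ± 1.78 CPM in mixed NIR where the sum was 11.7, and at 28.9 ± 1.58 CPM in mixed IR where it was 32.8. About 16.5 of the latter 32.8 CPM were the MCF10A part of the sum. S100A4 was 1.07 times the sum in NIR and 1.23 times in IR, S100A6 was 0.903 and 0.884 times, S100A10 was 1.17 and 1.05 times, and S100A11 was 0.976 and 0.913 times. S100A14 had the lowest ratio of these, 0.639 times the sum in NIR and 0.727 times in IR. With the described share of 50%, S100A2 would stand at 589 CPM in NIR and 665 CPM in IR, far above every mixed library.

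**Figure D5:**
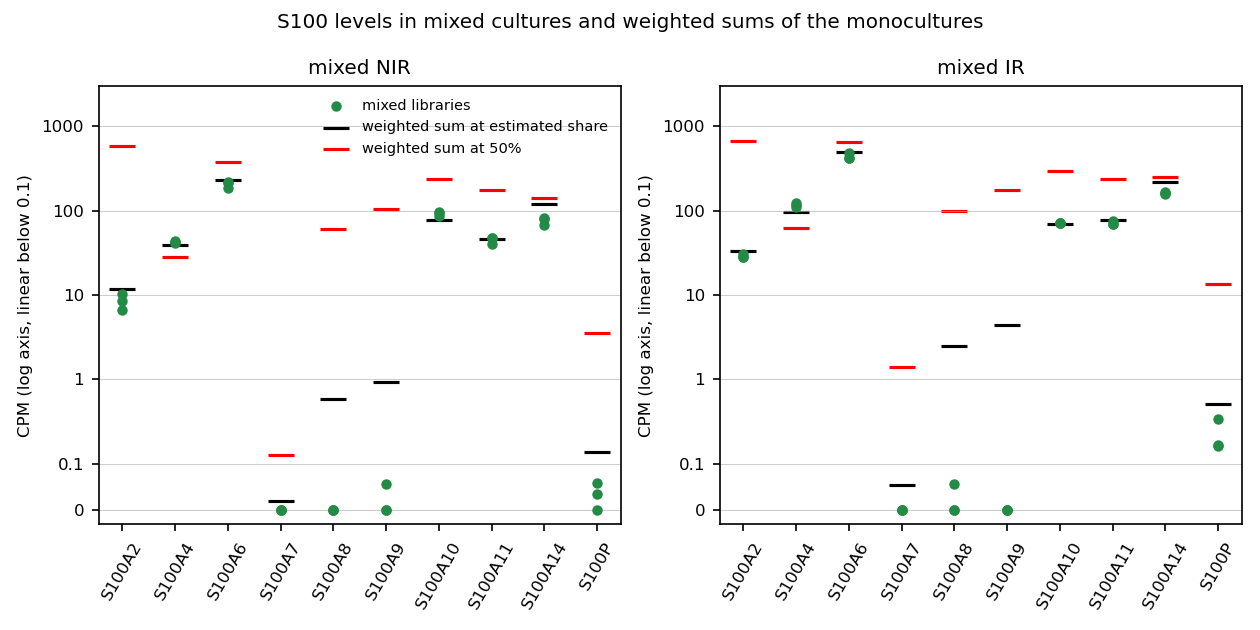
CPM of each S100 gene (log axis, linear below 0.1) in the 3 mixed libraries of each treatment (green points), beside the weighted sum of the monocultures at the estimated MCF10A share (black bars) and at 50% (red bars). S100A8 and S100A9 lie at or near 0 where the black bars stand at 0.579 and 0.936 CPM in NIR and at 2.49 and 4.38 CPM in IR.

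Direct tests of mixed against HCT116 cultures called 2 of the 6 tested members without irradiation, against 2.04% of 16455 genes (0.887% higher, 1.15% lower). S100A14 was lower by a log2 fold change of -0.63 (SE 0.089, edgeR adjusted p = 0.00048), and S100A10 was higher by 0.27 (SE 0.068, edgeR adjusted p = 0.043). The S100A10 call was lost under upper-quartile scaling, with library size alone and whichever of the 6 libraries was left out, so it is not firm. After irradiation 3 of 6 members were called, against 8.56% of 17137 genes (5.08% higher, 3.48% lower). S100A2 was higher by 0.81 (SE 0.092, edgeR adjusted p = 2.33e-07) and S100A4 by 0.27 (SE 0.059, edgeR adjusted p = 0.0027), and S100A14 was lower by -0.46 (SE 0.052, edgeR adjusted p = 1.53e-07) on the log2 scale. Of the 10 basal mammary markers 9 passed the filter in both HCT116 IR and mixed IR, of which 5 were higher and 1 lower in mixed IR. TP63 passed only through the mixed libraries and is not in that count. The 10 markers summed to 1653 to 1936 CPM in mixed IR against 1345 to 1561 CPM in HCT116 IR. Without ITGB4, left out after its values were seen, the sums were 695 to 793 against 450 to 492 CPM. The part of these markers in the S100A2 value was not tested. S100A6 was at -0.18 (SE 0.057, edgeR adjusted p = 0.051), just outside the threshold. It was called in 5 of 8 other settings, with adjusted p from 0.00099 to 0.078, and in 2 of 6 fits without a library, with adjusted p from 0.026 to 0.30, so its side of the threshold depends on the processing. S100A14 was thus the member lower in mixed cultures under both treatments. The summed intestinal markers, 748 to 1022 CPM in HCT116 NIR and 1449 to 1689 in HCT116 IR, were 670 to 725 CPM in mixed NIR and 1160 to 1256 in mixed IR. KRT19 made up nearly all of these sums: the other 9 markers summed to 25.6 to 26.3 CPM in HCT116 IR and 25.1 to 27.2 CPM in mixed IR, and to 25.4 to 27.7 CPM in HCT116 NIR and 18.2 to 24.5 CPM in mixed NIR. The part of KRT19 or of these markers in the S100A14 values was not tested.

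The irradiation response of the 6 testable members was not called different between mixed and HCT116 cultures. None passed in edgeR, with 1 at an unadjusted p under 0.05, and none passed in DESeq2, against 0.83% of 18072 genes called in edgeR (0.681% higher, 0.149% lower). The member with the largest difference was S100A2, at 0.40 with a 95% interval of 0.02 to 0.79 and an edgeR adjusted p of 0.40. The part of the MCF10A share of RNA in this S100A2 value was not tested. For S100A10 the difference was -0.09, with a 95% interval of -0.30 to 0.13.

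Genes with the most similar pattern were searched for 4 members among 10914 genes of at least 10 CPM in some group, by Pearson r of log2(CPM + 1) over the 18 libraries. The 18 libraries fall into lines and treatments, so r mostly describes those group levels, and no p is given. For S100A8 the nearest were SAMSN1 (r = 0.9997), IRX2-DT (r = 0.9996) and MYOSLID (r = 0.9991). For S100P they were PDZK1IP1 (r = 0.9978), MRGPRX3 (r = 0.9970) and PI3 (r = 0.9959), the last encoding elafin, a protease inhibitor of epithelia. PI3 stood at means of 19.5 CPM in MCF10A NIR and 101 CPM in MCF10A IR. For S100A2 they were MPZL1 (r = 0.9967), KYNU (r = 0.9965) and ANXA8 (r = 0.9964), and for S100A4 they were PURPL (r = 0.9865), EXOC7 (r = 0.9850) and HYAL1 (r = 0.9846). PURPL, a long noncoding RNA, stood at 1.17 and 5.54 CPM in MCF10A NIR and IR and at 10.5 and 68.9 CPM in HCT116 NIR and IR.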

How the data were processed

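RNA of 18 cultures of established cell lines was sequenced as poly(A)-selected, stranded, paired-end libraries. The authors deposited raw read counts per gene symbol, 1 table per library, with no normalization; fastp, STAR, featureCounts and GRCh38 are named, without versions, per the submitters' processing notes. Strand setting and the handling of mates are not given in the sources used here. Of values from 1 to 10, 68.3% were even (29871 values of 2 against 12867 of 1), so fits on halved counts were made too.

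From the counts, CPM were computed as counts over the library total times 1e+06, and mean ± SD over 3 libraries. Comparisons used edgeR 4.0.16 (R 4.3.3): TMM normalization, filterByExpr, the 2-sided quasi-likelihood test on the libraries of the compared groups, and Benjamini-Hochberg adjustment over all genes tested, called under 0.05. SE came from the log2 fold change and F, and 95% intervals from the SE. The scripts were tested on simulated data. Alternatives were DESeq2 1.42.0, upper-quartile scaling, library size alone, no filter, at least 1 CPM in 3 libraries, halved counts, library sizes without mitochondrial and the 10 most abundant genes, a replicate block, and leaving out each library. Per-kilobase levels used the median length of GENCODE v29 principal transcripts. No 2 replicates agreed within counting error.

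The 10 genes and the lists were chosen with earlier results of these data known. From each list of non-members, up to 4 called genes of at least 10 CPM with the largest log2 fold change were named. For S100A2, S100A4, S100A8 and S100P, the 3 genes of highest r were named.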

Additional observations from a re-analysis of the deposited data

Results flagged for a closer look

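The irradiation response of 5 S100 genes differed between HCT116 and MCF10A in a test of the difference itself, edgeR's interaction term over the 12 monoculture libraries, given as log2 fold change in HCT116 minus that in MCF10A. The difference was 1.14 for S100A2, 0.48 for S100A4, 0.48 for S100A6 and 0.33 for S100A11, each with the larger rise in HCT116. It was -0.76 for S100A10, which rose in MCF10A and fell in HCT116. Over all 18179 genes tested, 37.3% were called in this test. DESeq2 did not call S100A6 (adjusted p = 0.101) or S100A11 (adjusted p = 0.108). The groups had 3 libraries each, so no single library was examined as standing apart from its group.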

How the results depend on the processing

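Of the alternative fits of the single members, 1014 kept the direction and the side of the threshold, 21 lost a call, 17 gained one and 10 changed sign. All 10 sign changes came from leaving out 1 library, in values that were not called. Lowest and highest values over those fits were -0.280 and 0.0959 for S100A6 and -0.0733 and 0.161 for S100A11 in mixed NIR against HCT116 NIR, and -0.135 and 0.0246 for S100A11 in mixed IR against HCT116 IR. For the response difference mixed minus HCT116 they were -0.0056 and 0.216 for S100A4, -0.296 and 0.0768 for S100A6 and -0.179 and 0.0263 for S100A10.

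Genes called in mixed NIR against HCT116 NIR numbered 335, against 520 in DESeq2, 671 with no filter and 145 to 313 with 1 library left out (145 without mixed NIR replicate 1, 178 without HCT116 NIR replicate 2). The 2 members called there became 1 under upper-quartile scaling, 1 with library size alone and 1 in every fit without 1 library. Genes called in mixed IR against HCT116 IR numbered 1467, against 866 to 1312 with 1 library left out (866 without mixed IR replicate 2, 914 without replicate 3). The response difference mixed minus HCT116 called 150 genes, against 293 in DESeq2, 336 with no filter and 64 to 197 with 1 library left out (64 to 93 without HCT116 NIR replicate 1, mixed NIR replicate 1 or any irradiated library). The cause of these changes was not tested.

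Replicate numbers are not said to mark a shared batch. Residuals of same-numbered libraries correlated between -0.162 and 0.209, and in 0 of 15 pairs of groups were all correlations over 0.1. The mean correlation was highest between HCT116 NIR and mixed NIR (0.114), and it was 0.101 between HCT116 IR and mixed IR. These values do not settle whether same-numbered libraries shared a batch. With the replicate block 716 genes were called in mixed NIR against HCT116 NIR, and 2220 genes and 5 members, in place of 3, in mixed IR against HCT116 IR.

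The MCF10A share of 0.452% in mixed NIR was 0.365% from genes of at least 50 CPM and 0.309% with under 0.3 CPM in the other line. The share of 1.26% in mixed IR was 1.12% and 0.989%. The 0.3 CPM limit and the 50% share were chosen after seeing the data. If mates were counted singly, floors and intervals of the scarce genes are too narrow.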
